A study of Mus musculus with 21 samples.

Results

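The genes described here are the human p16 transgene (hsCDKN2A) and the 9 mouse genes that make up its direct pathway, which are the INK4 inhibitors Cdkn2a, Cdkn2b, Cdkn2c and Cdkn2d, the kinases Cdk4 and Cdk6, and the RB family Rb1, Rbl1 and Rbl2. They were taken by name from a table of 22050 entries, so these are 10 of 22050. The rule itself used no measured value, but the 10 were chosen with earlier results of these data known. The RNA came from keratinocytes of the dorsal skin of male mice on a mixed C57Bl6, 129sv and FVB background. Control mice were K5-rtTA/tet-GFP, and p16 mice were K5-rtTA/tet-GFP/tet-p16 and so carried a doxycycline-responsive human p16 gene as well. Both groups drank doxycycline from 3 weeks of age for 6 months. The rtTA activator is driven by the keratin 5 promoter, which is known for its activity in basal epidermal cells and hair follicles. Cells were sorted for GFP and not for p16 itself.

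GFP+ cells were sorted after cells carrying CD140a, CD45 or CD31 had been gated out. A sample held about 80000 cells pooled from 3 mice, and there were 4 samples per group from 3 independent experiments, whose assignment to samples is not named in the sources used here. Reads on genes totalled 1760953 to 3414362 per control library and 2884544 to 3202975 per p16 library. The deposited numbers are reads per gene over a library's size factor, called normalized values here, and a single read was worth between 0.742 and 1.53. The libraries read the 3′ ends of transcripts.

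INK4 proteins bind CDK4 and CDK6 and keep them from pairing with D-type cyclins. Without active CDK4 or CDK6 the RB family proteins stay bound to E2F transcription factors and hold back the genes needed for DNA replication and mitosis. RB itself (Rb1) and p107 (Rbl1) and p130 (Rbl2) share this role, p130 mainly in resting cells and p107 in cycling ones, and Rbl1 is itself a known E2F target. In skin, p16 is known as a brake on proliferation that accumulates with age and is often lost in squamous carcinoma.

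The 9 mouse genes lie on GRCm38 at chr4:89274471-89294653 (Cdkn2a), chr4:89306299-89311039 (Cdkn2b), chr4:109660876-109667189 (Cdkn2c), chr9:21288410-21291407 (Cdkn2d), chr10:127063534-127067920 (Cdk4), chr5:3341485-3531008 (Cdk6), chr14:73183673-73325822 (Rb1), chr2:157145893-157204534 (Rbl1) and chr8:91070057-91123844 (Rbl2). Cdkn2a and Cdkn2b are neighbours on the minus strand of chromosome 4. Cdkn2a is annotated with 2 transcripts, which encode p16Ink4a and p19Arf from different first exons and share the 3′ part, so its single entry cannot separate them.

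RefSeq promoter windows on GRCm38.p6, each with 250 bases before and 50 after a start site, were found for 8 of the 9 mouse genes, 10 windows in all. They were searched on both strands for an E2F-type motif in its 4 spellings TTTCCCGC, TTTCGCGC, TTTGCCGC and TTTGGCGC. The motif stood in 2 of the 10 windows, those of Rbl1 and of the upstream start of Cdkn2a, and in 744 of 32851 promoter windows of all genes (2.26%). The following lines show both windows, with the motif in capitals at positions -18 and -99 from the start, and the downstream Cdkn2a start, from which p16Ink4a is made and in which no spelling occurred. All 3 are on the minus strand, at chr2:157204485-157204784 (Rbl1), chr4:89294570-89294869 (Cdkn2a, upstream) and chr4:89282143-89282442 (Cdkn2a, downstream).
Rbl1: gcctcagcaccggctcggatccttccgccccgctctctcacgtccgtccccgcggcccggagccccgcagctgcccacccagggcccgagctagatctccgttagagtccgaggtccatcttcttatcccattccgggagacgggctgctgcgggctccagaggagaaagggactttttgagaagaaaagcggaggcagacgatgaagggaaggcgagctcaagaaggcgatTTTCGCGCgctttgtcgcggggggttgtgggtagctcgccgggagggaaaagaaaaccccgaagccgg
Cdkn2a upstream: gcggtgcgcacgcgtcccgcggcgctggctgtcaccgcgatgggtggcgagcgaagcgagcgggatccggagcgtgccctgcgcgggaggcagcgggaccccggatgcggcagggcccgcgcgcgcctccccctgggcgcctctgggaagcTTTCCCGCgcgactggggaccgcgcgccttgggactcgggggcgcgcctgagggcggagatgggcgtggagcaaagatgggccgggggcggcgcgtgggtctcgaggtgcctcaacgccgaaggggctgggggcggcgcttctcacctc
Cdkn2a downstream: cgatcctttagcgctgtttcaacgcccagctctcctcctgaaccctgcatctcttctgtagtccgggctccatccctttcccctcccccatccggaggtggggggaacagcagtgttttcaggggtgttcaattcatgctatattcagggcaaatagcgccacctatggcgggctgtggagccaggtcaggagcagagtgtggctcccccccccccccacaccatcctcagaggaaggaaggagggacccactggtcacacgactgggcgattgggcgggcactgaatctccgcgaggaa

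In the comparison of p16 with control keratinocytes, none of the 10 genes passed the test across all genes (limma on log2(normalized value + 1), Benjamini-Hochberg adjusted p under 0.05), where 3.86% of the 12782 genes tested did. At the threshold of an unadjusted p under 0.05 there were 4 of the 10, beside 15.9% of all genes tested. These 4 were the transgene and Cdk6, with higher values in p16 cells, and Rbl1 and Cdkn2c, with lower values. The test on recovered reads gave 0 called members as well. At an adjusted p under 0.05, edgeR (8 members tested) called 4.29% of all genes and DESeq2 4.38%. At an unadjusted p under 0.05 each tool had 3 members, and these differed. They were Cdk6, Rbl1 and Cdkn2c with edgeR, which did not test hsCDKN2A, and hsCDKN2A, Cdk6 and Rbl1 with DESeq2. The share of all genes at that threshold was not computed for either tool. All 10 had a mean of 1 or more and entered the limma test. With the library labelled p16 replicate 1 left out, 1 of the 10 passed (hsCDKN2A), beside 261 of 12796 genes tested. In that fit 2 were at an unadjusted p under 0.05 (hsCDKN2A and Rbl1), and the share of all genes was not computed. Without p16 replicate 4, 1 of the 10 passed (Cdk6), beside 539 of 12814 genes tested. Each time the library left out held the lowest p16 value of the gene that passed. No other fit that left out a single library called a member. For none of the 10 were the 4 p16 values fully separated from the 4 control values, a separation that 9.83% of the genes tested showed. Which pools belonged to the same experiment is not named, so these p-values measure the spread between the samples, whatever its source. In RNA from pooled cells, fewer cells of a type and less RNA per cell cannot be told apart.

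**Figure D1:**
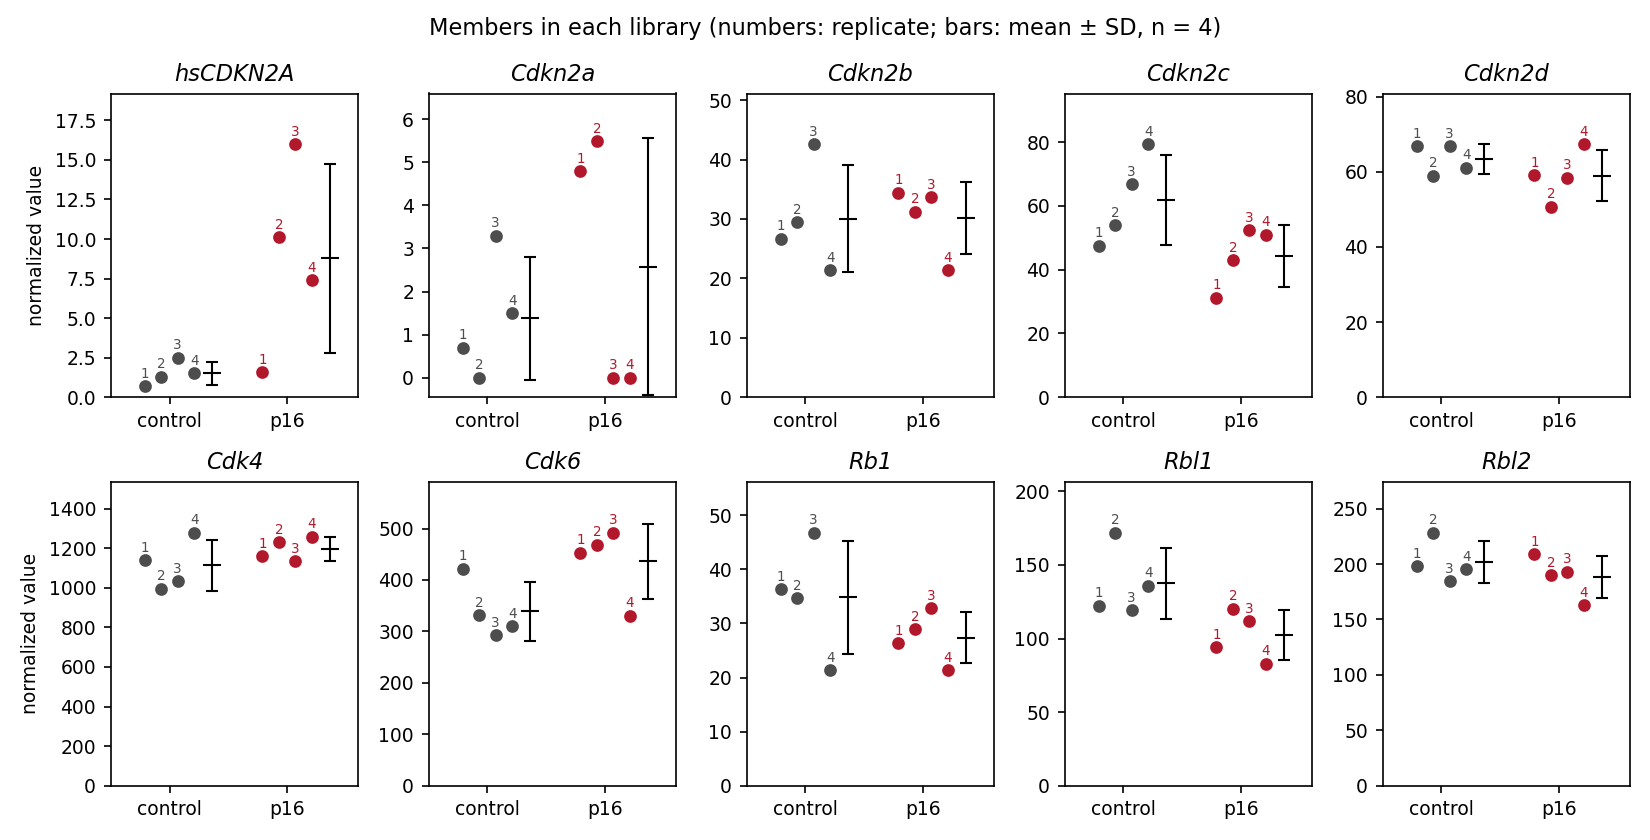
Normalized value of each of the 10 genes (y axis, linear) in every library, control in grey and p16 in red, with the replicate number at each point and the mean ± SD of 4 libraries beside them. The transgene is at 7.4 or more in p16 replicates 2, 3 and 4 and at 1.6 in the library labelled p16 replicate 1, while the values of the other genes overlap between the groups.

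The transgene was measured with few reads. Listed from replicate 1 to replicate 4, as throughout, the normalized value of hsCDKN2A was 0.7, 1.3, 2.5 and 1.5 in the controls and 1.6, 10.1, 16 and 7.4 in the p16 libraries. These values rest on 1, 1, 3 and 1 reads in the controls and on 2, 13, 18 and 9 reads in the p16 libraries. Replicates 2 to 4 of the p16 group lay above every control, and the library labelled p16 replicate 1 lay inside the control range. Group means were 1.5 ± 0.748 and 8.78 ± 5.98 (SD, n = 4), and the exact two-sided permutation test gave p = 0.0571, where 4 samples against 4 allow 0.0286. Pooled over the libraries of a group and scaled by the size factors, 42 reads against 6 made a ratio of 5.71, with a 95% exact counting interval of 2.42 to 16.4. That interval covers counting error only and leaves out the spread between mice.

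In limma the log2 fold change of hsCDKN2A was 1.73, with a 95% interval of 0.60 to 2.86 (adjusted p = 0.0952). Leaving out the library labelled p16 replicate 1 made it 2.27, which passed the test (limma adjusted p = 0.0169). The other 7 fits that each left out a single library gave an adjusted p of up to 0.263 and did not pass. Control mice carry no tet-p16 by their labels, and the source of the 6 reads counted there was not tested.

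GFP, the second transgene, was the marker by which cells of both groups were sorted, so its level is a description of the sort. EGFP had 4152, 5798, 5458 and 5913 in the controls and 3624, 3979, 3162 and 3453 in the p16 libraries. Each p16 library was below each control library. In the library labelled p16 replicate 1 EGFP was thus as in the other p16 libraries, although hsCDKN2A was not. Expressed per 1000 of EGFP, hsCDKN2A was 0.441 in that library and 2.54, 5.06 and 2.14 in p16 replicates 2, 3 and 4, against 0.169 to 0.458 in the controls.

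Among the 10431 genes whose mean was 10 or more, the 3 whose log2 values were most like those of hsCDKN2A over the 8 libraries were Wbp11, Tmem104 and Hal, with Pearson's r of 0.98, 0.95 and 0.93. Wbp11, which encodes a splicing factor, had 103.1 to 109.4 in the controls, 110.3 in the library labelled p16 replicate 1 and 143.7, 143.6 and 133.2 in the other p16 libraries. Hal, the histidine ammonia-lyase of the epidermis, had 20.5 to 35.1 in the controls, 32.0 in that library and 58.6, 56.7 and 51.8 in p16 replicates 2 to 4. These 3 genes were picked for the highest r among 10431, so their likeness to hsCDKN2A is no support for its pattern. No r was tested, and the 8 libraries also differ in group, depth and scaling.

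Endogenous Cdkn2a was near the limit of detection in both groups, with 7 reads or fewer in every library. It had 0.7, 0.0, 3.3 and 1.5 in the controls, from 1, 0, 4 and 1 reads, and 4.8, 5.5, 0.0 and 0.0 in the p16 libraries, from 6, 7, 0 and 0 reads. Where a library held no read, a limit of 3 reads corresponds to a normalized value of 3.85 in control replicate 2, 2.66 in p16 replicate 3 and 2.47 in p16 replicate 4. The pooled ratio of 13 reads to 6 was 1.77, with a 95% exact counting interval of 0.627 to 5.67. No difference was detected (limma adjusted p = 0.914), and so few reads do not show that the groups were equal.

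Of the other INK4 genes, Cdkn2c (p18Ink4c) had the smallest p, with lower values in p16 cells. Cdkn2c was 47.5, 53.9, 66.8 and 79.4 in the controls and 31.2, 42.9, 52.3 and 51.0 in the p16 libraries. The groups overlapped because p16 replicates 3 and 4 exceeded control replicate 1. The means were 61.9 ± 14.2 and 44.4 ± 9.70 (SD, n = 4), a log2 difference of -0.47 with a 95% interval of -0.91 to -0.03 (limma unadjusted p = 0.0380, adjusted p = 0.272, exact permutation p = 0.114). The unadjusted limma p was under 0.05 in 4 of the 8 fits that each left out a library, and DESeq2 gave an unadjusted p of 0.0546.

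Cdkn2b, the p15Ink4b gene next to Cdkn2a and a known target of TGF-β signalling, had 26.7, 29.5, 42.6 and 21.4 in the controls and 34.4, 31.2, 33.7 and 21.4 in the p16 libraries. The p16 values lay within the control range, and the fold was 1.02 with a 95% interval of 0.713 to 1.45 (limma adjusted p = 0.979). Cdkn2d, the p19Ink4d gene, had 66.8, 59.0, 66.8 and 61.1 in the controls and 59.2, 50.7, 58.5 and 67.4 in the p16 libraries. Its fold was 0.927 with a 95% interval of 0.748 to 1.15 (limma adjusted p = 0.795). These intervals bound the size of a difference and do not show that the groups were equal.

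Of the kinases that p16 binds, Cdk6 had higher values in 3 of 4 p16 libraries than in any control. It was 422.1, 331.1, 292.3 and 310.1 in the controls and 453.3, 468.5, 492.1 and 330.5 in the p16 libraries. The fourth p16 library lay below control replicates 1 and 2 and above the other two. Group means were 338.9 ± 57.7 and 436.1 ± 72.2 (SD, n = 4), a fold of 1.28 with a 95% interval of 1.04 to 1.58 (limma unadjusted p = 0.0218, adjusted p = 0.207, exact permutation p = 0.0857). Leaving out p16 replicate 4 gave a log2 fold change of 0.49 and a limma adjusted p of 0.0299, and the other 7 fits that left out a single library did not pass. The unadjusted limma p of Cdk6 was under 0.05 in 3 of these 8 fits.

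Cdk4 had 1140.9, 995.9, 1034.8 and 1278.8 in the controls and 1160.2, 1231.3, 1134.0 and 1258.0 in the p16 libraries. All 4 p16 values lay inside the control range. With 4390 control and 5837 p16 reads behind it, Cdk4 had the narrowest interval of the 10, and its fold was 1.08 with a 95% interval of 0.935 to 1.25 (limma adjusted p = 0.656). Exons of Cdk4 overlap those of Tspan31 on the opposite strand, and since the strand setting of the counting is not given in the sources used here, reads of the 2 genes may not be fully separated. Tspan31 had 82.8 ± 15.5 in control and 93.2 ± 11.1 in p16 cells (SD, n = 4).

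In the RB family, Rbl1 (p107) had the smallest p, with lower values in p16 cells. It was 122.4, 172.0, 119.4 and 136.0 in the controls and 94.3, 120.2, 111.7 and 83.0 in the p16 libraries. In p16 replicates 1, 3 and 4 Rbl1 was below every control, and replicate 2 exceeded only control replicate 3. The means were 137.5 ± 24.1 and 102.3 ± 16.8 (SD, n = 4), a fold of 0.746 with a 95% interval of 0.596 to 0.935 (limma unadjusted p = 0.0147, adjusted p = 0.170, exact permutation p = 0.0571). Across the 8 fits that each left out a library the log2 fold change stayed between -0.50 and -0.31, and the adjusted p between 0.116 and 0.361.

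Rbl2 (p130) had 198.1, 228.4, 184.6 and 195.6 in the controls and 208.7, 189.7, 193.3 and 162.8 in the p16 libraries. Its groups overlapped widely, with a fold of 0.935 and a 95% interval of 0.791 to 1.1 (limma adjusted p = 0.755). The quotient of Rbl1 over Rbl2 was 0.618 to 0.753 in the controls and 0.452 to 0.634 in the p16 libraries, given as a description of unequal values within each library.

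Rb1 was 36.3, 34.7, 46.8 and 21.4 in the controls and 26.4, 28.9, 32.8 and 21.4 in the p16 libraries. The p16 values again lay within the control range, and the fold was 0.812 with a 95% interval of 0.567 to 1.16 (limma adjusted p = 0.616). Rb1 rests on 146 control and 133 p16 reads. Its exons overlap Rcbtb2 and Lpar6, and those of Rbl2 overlap Aktip, all on the opposite strand. Rcbtb2 had 51.2 ± 11 and 62.1 ± 4.71, Lpar6 31.8 ± 9.30 and 38.3 ± 9.11, and Aktip 117.7 ± 18.1 and 100.1 ± 8.27 in control and p16 cells (SD, n = 4), and none of the 3 passed the test (limma adjusted p = 0.463, 0.645 and 0.463).

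**Figure D2:**
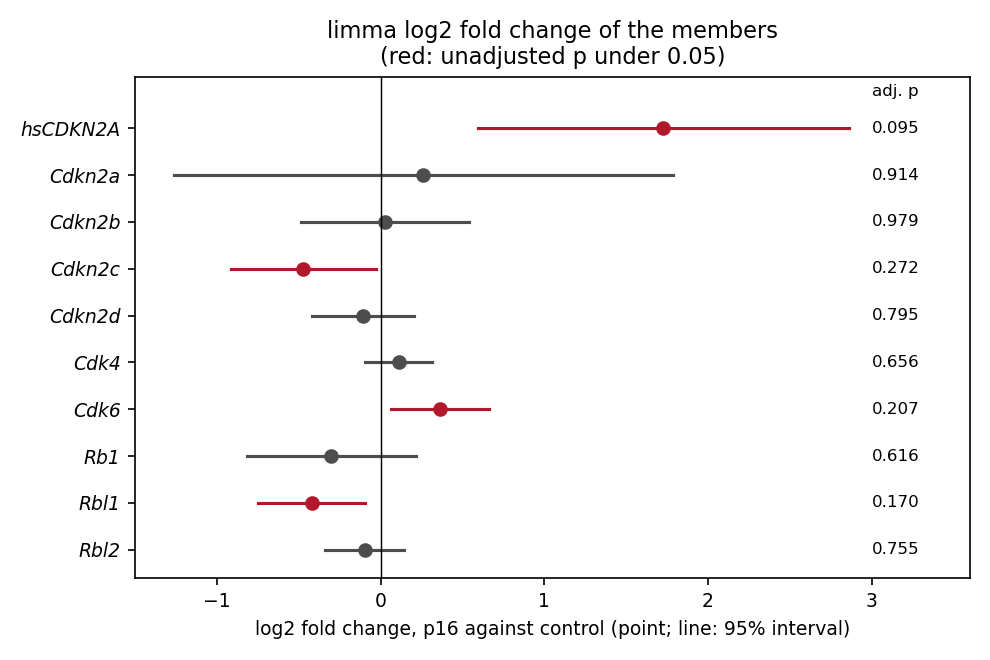
log2 fold change of each gene in p16 against control cells (x axis, limma on log2(normalized value + 1)) with its 95% interval as a line and its adjusted p at the right, red where the unadjusted p was under 0.05. The intervals of hsCDKN2A (0.60 to 2.86), Cdk6, Rbl1 and Cdkn2c exclude 0, and no adjusted p is under 0.05.

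Over the 10 genes the log2 fold changes were positive in 5 and negative in 5, with a median of -0.036 beside -0.0027 for all genes tested. Over the 9 mouse genes the median was -0.10. Values are on the log2(normalized value + 1) scale, which understates the change of low genes such as hsCDKN2A.

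**Figure D3:**
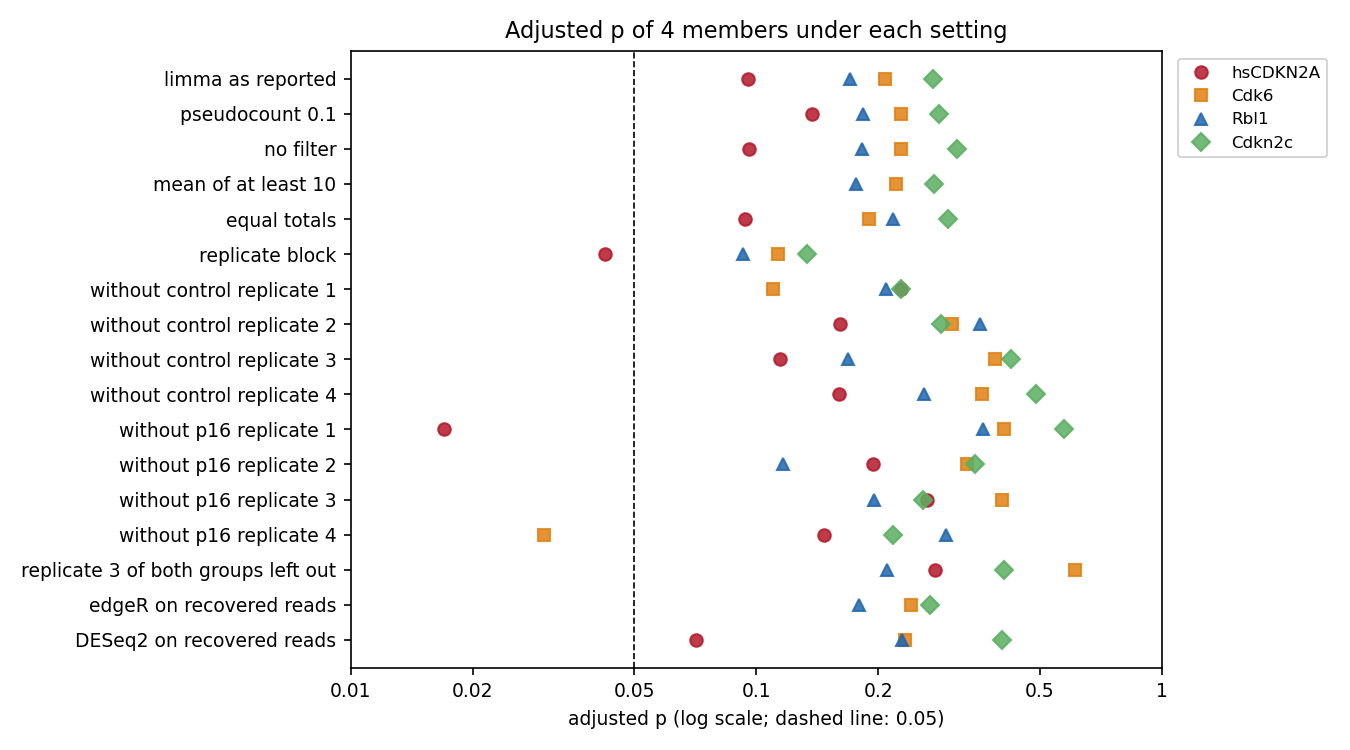
Adjusted p (x axis, log scale, dashed line at 0.05) of hsCDKN2A, Cdk6, Rbl1 and Cdkn2c under each processing setting (y axis). hsCDKN2A is to the left of the line with the replicate number as a block (0.0424) and without p16 replicate 1 (0.0169), and Cdk6 without p16 replicate 4 (0.0299), and the other points are at or above 0.0712.

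The pathway around these genes was followed in 8 lists with 91 genes, all of which were tested. Of the 91, 2 rose, 1 fell and 88 did not pass, where 1.24% of all genes tested rose and 2.61% fell. At an unadjusted p under 0.05, 5 were higher and 15 lower, beside 7.02% higher and 8.93% lower of all genes tested. The median log2 fold change of the 91 was -0.14.

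Both genes that rose were in the list of cyclins, CDK2 and Cip/Kip inhibitors, and encode partners of CDK4 and CDK6. Ccnd1, which encodes cyclin D1, had 905.8, 678.9, 612.2 and 715.0 in the controls and 1210.5, 1314.8, 1424.9 and 1358.3 in the p16 libraries. Ccnd2 (cyclin D2) had 4041.5, 4576.4, 3573.8 and 4265.6 in the controls and 6664.3, 6324.9, 6885.8 and 5822.1 in the p16 libraries. Every p16 library was above every control for both genes, with log2 fold changes of 0.88 and 0.65 (limma adjusted p = 4.5e-04 and 0.00284). Both calls held in each of the 8 fits without a single library, and with edgeR and DESeq2.

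Further genes of that list were looked at after their values were seen. Ccnd3 (cyclin D3) had 75.7 to 140.3 in the controls and 147.9 to 176.0 in the p16 libraries, so its groups did not overlap, and it missed the threshold (log2 fold change 0.47, limma adjusted p = 0.172). Ccne2, a cyclin that acts with CDK2 after RB has released E2F, had 39.8 to 44.5 and 18.1 to 40.8 (log2 fold change -0.52, limma adjusted p = 0.271). The Cip/Kip inhibitors Cdkn1a (p21) and Cdkn1b (p27) had log2 fold changes of -0.34 and -0.41 (limma adjusted p = 0.174 and 0.172). Without control replicate 4, Cdkn1b passed, at -0.55 on the log2 scale (limma adjusted p = 0.0332). In the other fits that each left out a single library Cdkn1b did not pass (limma adjusted p = 0.164 to 0.369). Nor did it pass with edgeR (edgeR adjusted p = 0.135) or DESeq2 (DESeq2 adjusted p = 0.107). Of the 9 genes of the list, 3 were higher and 3 lower at an unadjusted p under 0.05, and the median log2 fold change was -0.34.

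No gene passed among the 5 CDK activators and the CDK chaperone, the 10 E2F and DP factors, the 6 genes of the MuvB core and B-Myb, the 11 RB co-repressor partners and the 4 genes of the ARF branch. Their median log2 fold changes were 0.13, -0.04, -0.15, -0.06 and 0.06. At an unadjusted p under 0.05 limma put 2 E2F genes higher (E2f3 and E2f4), 1 lower (E2f2) and 1 co-repressor partner lower (Hdac1), and no gene of the other 3 lists. E2f4, a mainly repressive E2F, was 195.8 to 219.7 in the controls and 224.9 to 259.0 in the p16 libraries, and E2f2, an activating one, was 84.7 to 102.7 and 63.8 to 84.3. Neither pair of ranges overlapped, and both genes had a limma adjusted p of 0.256, with log2 fold changes of 0.23 and -0.33.

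Hdac1, a deacetylase recruited by RB, was 42.4 to 50.4 in the controls and split among the p16 libraries, with 49.6 and 40.3 in replicates 1 and 4 and 14.8 and 16 in replicates 2 and 3 (limma adjusted p = 0.263). Sin3b, a scaffold of the same kind of complex, differed by -0.18 on the log2 scale (limma adjusted p = 0.532). Rbbp4 and Lin37 of the MuvB complex had log2 fold changes of -0.17 and 0.20 (limma adjusted p = 0.431 and 0.475). Cdc25a, a phosphatase that activates CDKs, and Ccnh, the cyclin of the CDK-activating kinase, had 0.30 and 0.22 (limma adjusted p = 0.371 and 0.465). For Trp53 (p53) and Mdm2, which restrains p53 and is bound by p19Arf, the log2 fold changes were 0.12 and 0.09 (limma adjusted p = 0.556 and 0.838).

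Among the 19 Polycomb genes and other regulators of the Ink4 locus, 1 fell and none rose. Id1, a helix-loop-helix inhibitor known to repress p16 transcription, had 648.4, 437.6, 472.7 and 598.9 in the controls and 337.4, 336.5, 397.2 and 287.8 in the p16 libraries. The groups did not overlap, and the log2 fold change was -0.66 (limma adjusted p = 0.0135). Without control replicate 1 the call was lost (limma adjusted p = 0.0547). Kdm2b, a demethylase of the locus, had the next smallest p, and its log2 fold change was -0.32 (limma adjusted p = 0.193). Bmi1 and Ezh2, the Polycomb genes best known for silencing Ink4a, had log2 fold changes of -0.02 and -0.37 (limma adjusted p = 0.982 and 0.386), and were added after their values were seen.

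Of the 27 E2F target and cell-cycle genes, none passed the test and 25 had a negative log2 fold change, where 50.4% of all genes tested did. At an unadjusted p under 0.05 there were 8 lower and 0 higher, beside 8.93% lower and 7.02% higher of all genes tested. The list's median log2 fold change was -0.28. Tyms, the thymidylate synthase, was 123.1, 107.8, 102.7 and 125.3 in the controls and 58.4, 91.3, 74.5 and 91.3 in the p16 libraries, with no overlap (log2 fold change -0.55, limma adjusted p = 0.0708). Mcm3, a subunit of the replicative helicase, was 123.2 to 148.4 in the controls and 87.8 to 125.0 in the p16 libraries (log2 fold change -0.41, limma adjusted p = 0.114). Mki67 (Ki67), chosen after its values were seen, ranged from 53.4 to 215.5 among the p16 libraries and from 153.6 to 259.2 among the controls (limma adjusted p = 0.396). The count of 8 was 5 without the library labelled p16 replicate 1, 5 without control replicate 4 and 5 to 11 over the 8 fits that each left out a library. It was 12 with the replicate number as a block, 8 with edgeR and 7 with DESeq2.

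**Figure D4:**
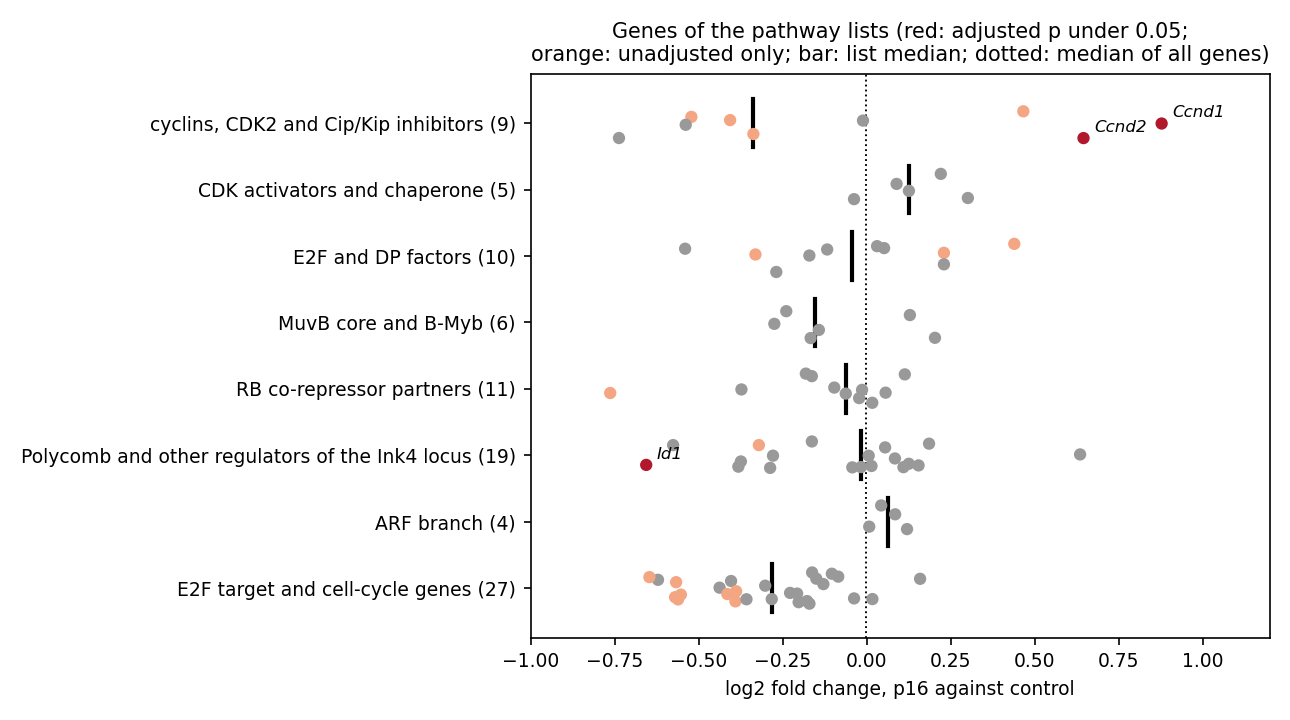
log2 fold change in p16 against control cells (x axis) of every gene in the 8 pathway lists (y axis, number of genes in brackets), red where the adjusted p was under 0.05 and orange where only the unadjusted p was, with the list median as a bar and the median of all genes dotted. Ccnd1 and Ccnd2 lie at 0.88 and 0.65, Id1 at -0.66, and 25 of the 27 E2F target and cell-cycle genes lie left of 0.

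Some markers of other cell types differed between the groups, and their part in the values above was not tested. The summed level of 6 hair-follicle stem cell markers was 2487 to 3168 in the controls and 994.0 to 1792 in the p16 libraries, and 5 of the 6 fell. The 5 sebaceous gland markers summed to 1107.5 to 1500.3 and 499.7 to 701.9, and 3 of the 5 fell. The 5 melanocyte markers summed to 63.4 to 411.0 and 13.9 to 80.4, and 2 of the 4 tested fell. The 6 fibroblast markers summed to 10.8 to 27.3 and 42.8 to 220.7, with Lum at 0 in all libraries. Dcn alone was called and was higher, with 2.6 to 10.7 in the controls and 36.2 to 203.0 in the p16 libraries. Of the 5 tested, 3 had a positive and 2 a negative log2 fold change. In control and p16 cells the means were 1.78 and 5.68 for Col1a1, 10.4 and 2.68 for Col1a2, and 1.85 and 0.60 for Col3a1.

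Endothelial markers summed to 2.6 to 5.0 and 3.9 to 8.9, with Cdh5, Kdr and Cldn5 at 0 throughout, and T cell markers to 12.2 to 21.8 and 7.1 to 17.6. Langerhans and myeloid markers summed to 77.8 to 96.8 and 86.9 to 120.7, nearly all of it Cd74, with Lyz2 at 0. Basal keratinocyte markers were abundant in all libraries, with sums of 31173 to 52262 in the controls and 31346 to 35972 in the p16 libraries, and 1 of the 6 (Krt15) fell. Differentiated keratinocyte markers summed to 5983 to 8394 and 6373 to 9803, and 1 of the 7 (Lor) rose and 2 (Ivl and Sbsn) fell.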

How the data were processed

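The 10 genes and the gene lists were chosen with earlier results of these data known. The authors' libraries, made by an adaptation of CEL-Seq2, cover transcript 3′ ends, and the labels of replicate 3 of both groups word the library protocol differently. Cutadapt served for trimming, TopHat2 for alignment to GRCm38 and HTSeq for counting (per the submitters' processing notes). Use of molecular identifiers, strand setting and annotation version are not given in the sources used here. The deposited signal values are reads per gene over a library's size factor, kept to 1 decimal. The authors' group means, log2 ratios, test statistics and p-values in the same table were not used. All values (100%, tolerance 0.1 read) were whole multiples of what 1 read is worth, so reads were recovered.

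The 8 libraries were grouped by their labels, and 13 further samples of a second profiling were not analysed here. Genes with a mean of at least 1 were tested with limma 3.58.1 (eBayes with trend, R 4.3.3) on log2(normalized value + 1) without a term for the replicate number, with Benjamini-Hochberg adjustment over all genes tested. hsCDKN2A was also compared by an exact two-sided permutation test (2 times the smaller one-sided p). Alternatives were a pseudocount of 0.1, no filter or a mean of at least 10, equal totals, a replicate block, each library left out, replicate 3 of both groups left out, edgeR 4.0.16 and DESeq2 1.42.0 on recovered reads, and unadjusted p. Counts of unadjusted p, and Ccnd1, Ccnd2, Cdkn1b, Id1 and EGFP, were followed over these settings after the data were seen. The tests were checked on simulated data. Gene positions are from GENCODE M21.

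Named genes were the 10, in each list the called genes or else the smallest limma p until 2 were named, and for hsCDKN2A the 3 genes of mean at least 10 with the highest Pearson's r. No library pair of a group was as alike as sampling noise allows. Intervals on reads cover counting error only.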

Additional observations from a re-analysis of the deposited data

How the results depend on the processing

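The count of called members was 0 under both pseudocounts, all 3 filters, equal totals, edgeR and DESeq2 and without both libraries numbered 3, and it was 0 to 1 over the fits that each left out a library. At an unadjusted p it was 4. The replicate block made it 1, hsCDKN2A (limma adjusted p = 0.0424). Deviations of same-numbered libraries had weakly positive correlations of 0.055, 0.004, 0.046 and 0.083, beside -0.10 to 0.058 between differently numbered libraries. Not every library correlated best with its own number. The main fit did not take the numbers as pairs, and a batch shared by number was not tested. With the block 608 genes of the whole table were called beside 493 without it. That count was 261 to 539 over the fits without a library, lowest without p16 replicate 1 and 263 without control replicate 1, 223 without both libraries numbered 3 and 2038 at an unadjusted p. The cause of these shifts was not tested. Members at an unadjusted p under 0.05 numbered 2 to 4 over the fits without a library, with 2 without control replicate 3, p16 replicate 1 or p16 replicate 2.

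The mean difference of hsCDKN2A, 7.28 normalized units, stayed between 4.87 and 9.67 without a library, and its exact permutation p between 0.0571 and 0.114. The two-sided p was taken as 2 times the smaller one-sided p, which with 3 against 4 allows no less than 0.0571. Taken instead as the share of splits with as large an absolute difference, a choice made after the data were seen, the exact permutation p was 0.0571 with all libraries, 0.0286 without p16 replicate 1 (a difference of 9.67) and 0.0571 to 0.0857 without any other library. Permuted within same-numbered pairs, the block gave an exact permutation p of 0.125, the smallest that 4 pairs allow. Under the doubled one-sided p with 3 against 4, and within pairs, the threshold cannot be passed, so those p-values say nothing of stability. With all libraries, 4 against 4, the doubled p could have reached 0.0286 and was 0.0571. Of 166 recomputed member values 149 kept direction and side of the threshold. The sign changed in 10, 4 of Cdkn2a and 6 of Cdkn2b. Cdkn2a was -0.17 with a pseudocount of 0.1 and between -0.20 and 0.70 without a library. Cdkn2b was -0.031 with edgeR, -0.018 with DESeq2 and between -0.12 and 0.20 without a library. Depth limits Cdkn2a and hsCDKN2A most: both were below the edgeR filter and the mean of 10, so those settings gave no value for them. Without p16 replicate 2 or p16 replicate 4, 2 of the E2F target and cell-cycle genes were called, and without control replicate 4 the cyclin and Cip/Kip list held 3 calls in place of 2.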
